A study of Drosophila melanogaster with 48 samples.

Results

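The genes described here are 100 of 11982 named genes measured in developing wings of Drosophila melanogaster, chosen by their high signal in pupal wings of the control line at 19 °C. Each gene was read through 1 probe set, and the 4 control arrays of each stage at 19 °C gave a mean for larva, prepupa and pupa. The 100 genes with the largest pupal mean over the higher of the other stage means were taken, after families of cuticle proteins, Osiris proteins and odorant-binding proteins had been left out by symbol. The selection rests on measured values of the control line at 19 °C, so the stage differences in those arrays are given as a description and were not tested. The difference that ranked the genes, called the margin here, ran from 9.11 log2 units for Jhbp7 to 2.60 for CG32006, with a median of 3.57. At the limit, CG8012, CG8736 and CG32006 were the last genes inside, with margins of 2.61, 2.61 and 2.60, and CG13070, Irc and pyd3 the first outside, with 2.60, 2.58 and 2.57. A margin of 1 log2 unit is a doubling of signal.

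The series compared wings that express the Hox gene Ubx, which specifies the haltere in place of a wing, with wings that express eGFP. Animals of the Ubx line were w; UAS-UbxIa / + ; nabGal4NP3537 / Tub-Gal80ts, and those of the eGFP line carried UAS-eGFP in place of UAS-UbxIa. Both lines share the Gal4 driver, an insertion in nab, and the temperature-sensitive Gal80 repressor, so transgene expression is limited to cells in which this driver is active. The transgenes were off in animals kept at 19 °C and on in animals moved to 29 °C for 16 h before collection. Wings came from wandering larvae of the third instar, from prepupae (at 19 °C, 12.5 h after the puparium formed; at 29 °C, 6 h after) and from pupae (33.5 h after at 19 °C and 16 h after at 29 °C). Each of the 12 groups had 4 biological replicates, each a pool of about 15 to 20 animals on 1 array, 48 arrays in all. Temperature, clock time after puparium formation and transgene state therefore change together. Levels are log2 intensities after quantile normalisation of all 48 arrays, with a common array median of 4.52.

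Around the time sampled here, the wing is a bilayer of epithelial cells that has finished most of its growth, secretes extracellular matrix and cuticle, and encloses haemolymph, migrating blood cells, sensory neurons and glia. Pulses of the steroid hormone ecdysone time these steps, and Eip93F (E93) is a transcription factor induced late in that sequence. The larval fat body, which dissociates into free cells during metamorphosis, makes most storage and carrier proteins of the haemolymph, among them Lsp2, a storage hexamerin, apolpp, the lipid carrier apolipophorin, and Fbp1, a receptor for storage protein.

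Markers of wing identity (vg, nub, ap, rn, Dll, al and dve) lay above the array median in every group, 7 of 7, with list means per array between 8.79 and 9.89. Of the markers of other tissues, those of fat body, neurons and glia had higher list means in pupae than earlier, and those of muscle and haemocytes overlapped between stages. The lists for neurons (fne and Appl), glia (repo) and muscle (Act88F and Mlc2) also hold members, chosen for a high pupal signal. That choice raises the pupal list means, so nothing is read from them. Among neuron markers outside the 100, elav was higher in eGFP pupae than in eGFP prepupae at 19 °C (8.42 against 6.54). There brp was lower in pupae (5.69 against 6.8). The mean of the 4 fat body markers measured, all of which are among the 100 genes, lay between 8.40 and 11.7 in pupal arrays, and between 4.90 and 7.52 in larval and prepupal arrays other than the third replicate of eGFP larvae at 29 °C, which stood apart at 10.1. Neuron markers had list means of 5.14 to 5.53 in pupae and 4.35 to 4.94 earlier. In pupae 6 of 13 lay more than 0.5 log2 units above the array median. Glia markers lay at 6.66 to 7.09 in pupae and 5.33 to 6.10 earlier. Muscle and myoblast markers lay at 5.26 to 5.65 in pupae and 4.59 to 5.52 earlier, and haemocyte markers at 6.32 to 6.71 in pupae and 6.13 to 7.0 earlier. No detection calls were used, so levels near the array median were not taken as above background. In such bulk samples, more cells of a type and more RNA per cell cannot be told apart.

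The 12 genes with the largest margin hold several secreted or haemolymph proteins. Jhbp7 is a predicted juvenile hormone binding protein. Its signal in pupae at 19 °C was 13.01, 13.04, 13.31 and 12.99 on the Ubx arrays, against 12.91, 12.99, 13.06 and 13.20 on the eGFP arrays, and its means in larvae and prepupae of the 4 line and temperature combinations lay between 3.57 and 3.97. The pupal arrays thus stood about 9 log2 units above every earlier group, and the lines overlapped at 19 °C. Mur89F, a mucin-related protein, averaged 13.01 ± 0.10 in Ubx pupae and 13.05 ± 0.09 in eGFP pupae at 19 °C (SD, n = 4 each), with earlier means between 4.20 and 4.60. Eip93F averaged 10.8 ± 0.11 in Ubx pupae and 10.8 ± 0.05 in eGFP pupae at 19 °C (SD, n = 4 each), against 3.50 in Ubx prepupae and 3.55 in eGFP prepupae. Tsf1, the iron carrier transferrin, averaged 11.6 in Ubx and 11.9 in eGFP pupae at 19 °C, and fon (fondue), a protein of the haemolymph clot, averaged 9.67 in Ubx and 10.1 in eGFP pupae. The other 7 of the 12 are CG1850, CG13023, CG18735, CG34247, CG6426, CG13067 and CG7365.

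**Figure D1:**
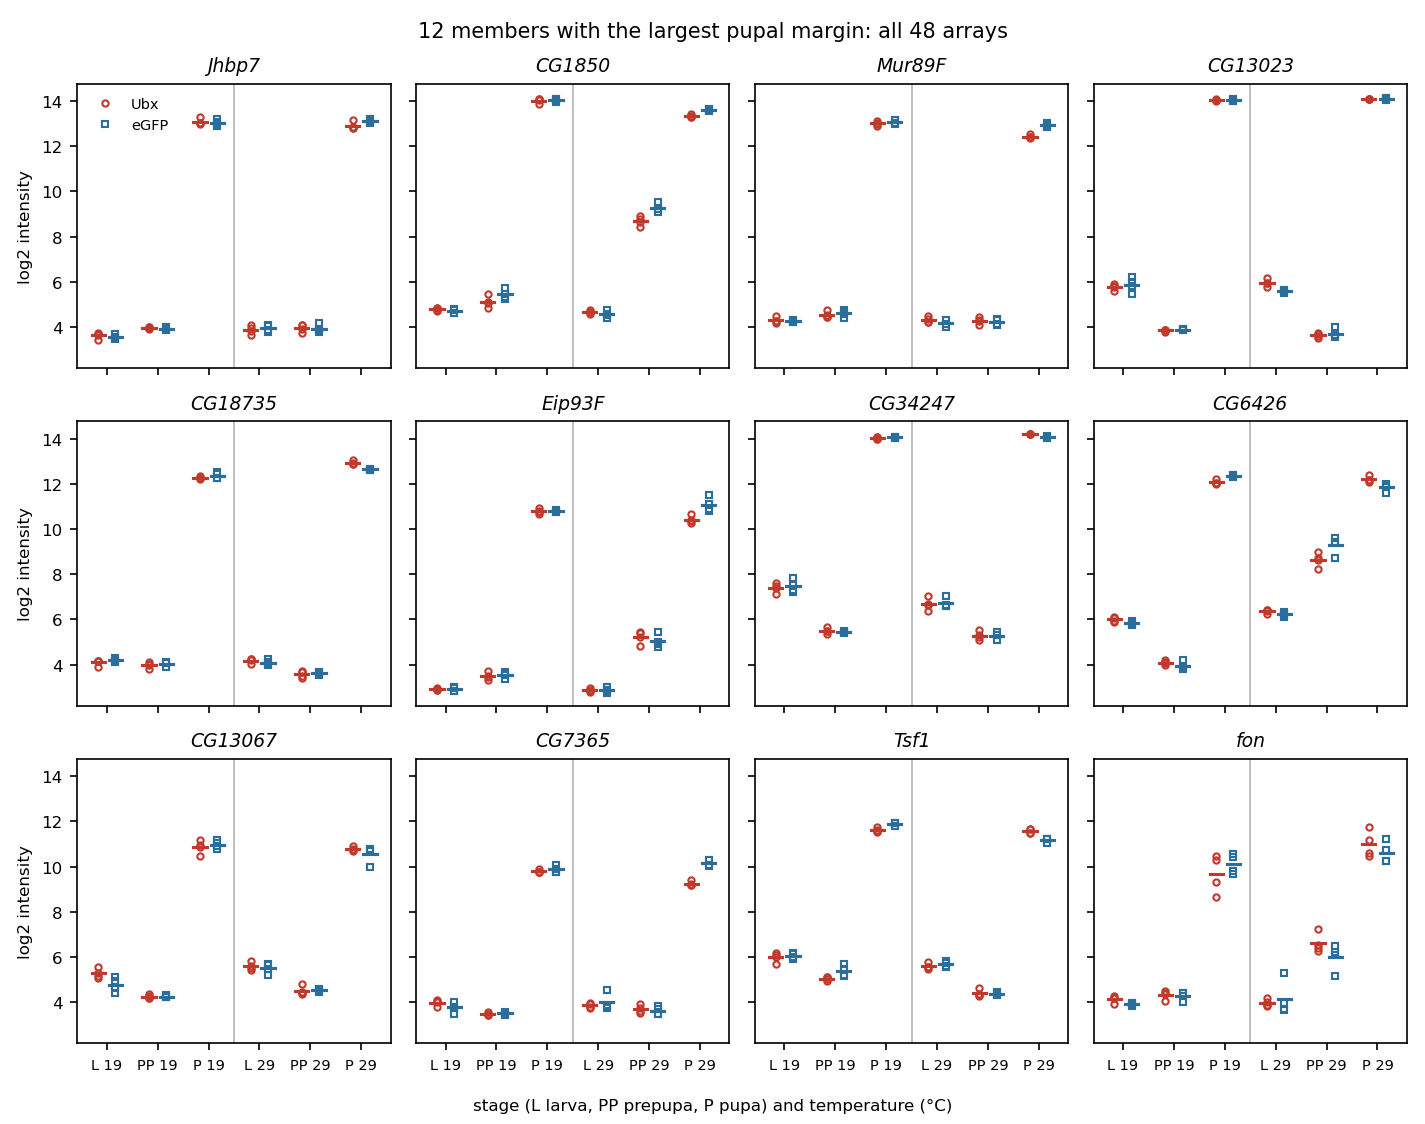
Signal of the 12 members with the largest margin on all 48 arrays (vertical axis, log2 intensity; horizontal axis, stage and temperature; circles Ubx, squares eGFP, bars means of 4). In each panel the pupal arrays lie far above the larval arrays, while CG1850 and CG6426 are already raised in prepupae at 29 °C and fon is the gene whose pupal replicates scatter most.

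Signals at the top of the scale need care. Quantile normalisation gives the same value to the same rank, so a probe set that holds the same top rank on several arrays takes an identical value there. CG34247 read 14.20 on each of the 4 Ubx arrays of pupae at 29 °C, and CG13023 read 14.07 on 3 of them and 14.09 on the other. For such genes the spread between replicates is set by the ranks and understates the measurement error, and a rise above that level could not be read.

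Beyond the pupal peak, the members differed in their earlier course. In the eGFP line at 19 °C, 14 members were higher in larvae than in prepupae by more than 1 log2 unit and 7 were lower by more than 1; in the Ubx line at 19 °C the counts were also 14 and 7. CG13053 had the widest gap, with eGFP means of 8.87, 4.24 and 13.7 in larva, prepupa and pupa at 19 °C. Qsox2, a sulfhydryl oxidase that forms disulphide bonds in secreted proteins, followed the same dip, with 7.04, 3.83 and 10.2, and tnc (tenectin), a mucin-like matrix protein that binds integrin, had 6.77, 5.14 and 11.7. The larval level of these genes was therefore partial and the prepupal one low. In the other direction, CG15213 had eGFP means of 5.54, 8.58 and 13.7 over the same stages.

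Whether the pupal peak holds in arrays that the selection did not use was tested in the Ubx line at 19 °C, the eGFP line at 29 °C and the Ubx line at 29 °C. A member counted as higher in pupae when it passed an adjusted p of 0.05 against both larvae and prepupae. In the Ubx line at 19 °C, 99 of the 100 members were higher in pupae, against 15.8% of all named genes, and the smaller of the 2 stage differences had a median of 3.39 over the members and -0.21 over all genes. In the eGFP line at 29 °C, 97 members were higher, against 15.5% of all genes, with medians of 3.54 and -0.22. In the Ubx line at 29 °C, 96 were higher, against 15.1% of all genes, with medians of 3.63 and -0.21. For Jhbp7 the smaller difference was 9.12, 9.17 and 8.95 in these 3 sets, with adjusted p-values of 2.28e-47, 9.12e-47 and 4.05e-47. The deposited array medians fell into 6 sets, 1 for each stage and temperature, so for stage differences the set and the stage cannot be told apart. Without the larval array that stood apart, 95 members were higher in the eGFP line at 29 °C. Of the 97 members, IM33 and LysX sat at the limit, with differences from prepupae of 0.40 ± 0.18 (SE, adjusted p = 0.0487) and 0.46 ± 0.20 (SE, adjusted p = 0.0451), and leaving out any single array of the eGFP line at 29 °C lost 1 or both, which left 95 or 96.

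The members that failed were few and fell into 2 kinds. Fbp2, a fat body protein related to alcohol dehydrogenase, was 0.25 log2 units above its prepupal level in Ubx pupae at 19 °C (adjusted p = 0.658) and 0.48 above it in Ubx pupae at 29 °C (adjusted p = 0.385). CG12998, osy and CG8736 failed at 29 °C in both lines where their prepupal level was not below the pupal one. CG12998 was lower in pupae than in prepupae by 0.75 in the Ubx line (adjusted p = 0.0161) and by 1.23 in the eGFP line (adjusted p = 0.000136). For osy (oskyddad), an ABC transporter needed for the lipid barrier of the cuticle, pupae were lower than prepupae by 0.38 in the Ubx line (adjusted p = 0.00318) and by 0.75 in the eGFP line (adjusted p = 1.58e-07). CG8736 was lower by 0.62 in eGFP pupae (adjusted p = 0.000265), while its 0.26 in Ubx pupae did not pass (adjusted p = 0.114). For these 3 genes the name of a pupal gene holds at 19 °C and not at 29 °C.

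Some members had a higher signal in prepupae at 29 °C than at 19 °C. In the eGFP line, 16 members were higher by more than 1 log2 unit in prepupae at 29 °C than at 19 °C, and 2 were lower by as much, against 3.72% and 3.81% of all genes. Members were chosen for a low signal in eGFP prepupae at 19 °C, which favours rises, so nothing is read from these counts. CG6426 read 8.70, 9.59, 9.42 and 9.39 in eGFP prepupae at 29 °C, against 4.19, 3.8, 3.94 and 3.86 at 19 °C. The Ubx line showed the same split, with 8.73, 8.21, 8.98 and 8.63 at 29 °C and 4.21, 4.10, 3.99 and 4.06 at 19 °C. In neither line did the temperatures overlap. The means of osy in eGFP prepupae were 11.5 at 29 °C and 7.05 at 19 °C, those of CG1850 9.26 and 5.44, and those of the long noncoding RNA CR33938 12.01 and 9.10. CG12998, CG15213 and CG34330 were higher at 29 °C by 2.84, 2.67 and 2.42, and Eip93F by 1.48. The others of the 16 were fon, Mco1 (a multicopper oxidase), IM33 (an immune-induced peptide), CG42749, CG14301, Tg (transglutaminase, which cross-links proteins), CG8736 and CG32006, with rises of 1.25 to 1.71. Prepupae at 29 °C were collected at an earlier clock time but developed faster, and age and temperature cannot be told apart.

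In pupae, members were chosen for a high signal at 19 °C, and the counts are again a description. The median over the members was 0.02 log2 units between eGFP pupae at 29 °C and at 19 °C; 6 members were higher by more than 1 and 8 lower, against 0.759% and 0.442% of all genes. LysX, a lysozyme, had the widest gap, with 4.12, 3.93, 4.07 and 4.31 in eGFP pupae at 29 °C, against 8.04, 6.93, 8.02 and 7.87 at 19 °C. The 29 °C arrays lay below the array median of 4.52. In Ubx pupae LysX read 4.91, 4.35, 4.68 and 4.35 at 29 °C, against 6.62, 6.05, 7.88 and 7.41 at 19 °C. CG12998 differed by -3.37 and CG8736 by -1.90 between eGFP pupae at 29 °C and at 19 °C. Mlc2, a myosin light chain of muscle, was higher at 29 °C by 1.81, CG34330 by 1.40 and CG13064 by 1.22.

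The members did not scatter alike between replicates. In Ubx pupae at 19 °C, 41 of the 100 had an SD over 0.5 log2 units, against 1.17% of all genes. In Ubx pupae at 29 °C, eGFP pupae at 29 °C and eGFP pupae at 19 °C the counts were 26, 22 and 9, against 0.985%, 0.593% and 0.234% of all genes. The deviations of each member from its group means were therefore set against those of the mean of Lsp2, apolpp and Fbp1 over the 12 pupal arrays that the selection did not use. The correlation r ran from -0.775 for fne to 0.987 for CG30026, and 36 members had r of at least 0.8, against 1.70% of all named genes. The 12 arrays share 3 groups of replicates, 3 of the 36 are the genes that make up the mean, and the limit of 0.8 was chosen with these values in view; 16 members lay between 0.7 and 0.9. Another 34 members had r below 0.

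The 36 members that moved with the fat body genes include haemolymph and metabolic proteins. Among them were fon, Jhe (juvenile hormone esterase, which degrades juvenile hormone), Ance-4 (related to angiotensin-converting enzyme), alpha-Est7 (a carboxylesterase), Lsd-1 (a perilipin of lipid droplets), CCHa2 (a peptide hormone), Gbp3 (a growth-blocking peptide), LysX, Drsl5 (a drosomycin-like peptide), TotB and TotF (Turandot stress proteins) and Cyp309a2 (a cytochrome P450). Lsp2 read 12.03, 10.86, 12.92 and 12.87 in Ubx pupae at 19 °C, against 13.01, 12.62, 13.09 and 12.57 in eGFP pupae. Jhe read 6.33, 5.30, 7.17 and 7.2 in Ubx pupae at 19 °C, against 7.67, 6.98, 7.65 and 7.07 in eGFP pupae. CCHa2 read 6.69, 5.09, 7.37 and 8.0 in Ubx pupae, against 7.82, 6.76, 7.91 and 7.22 in eGFP pupae. In each case the second Ubx replicate was the lowest array and the lines overlapped.

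The limit on r selects members that follow the replicate order of the fat body mean on these 12 arrays, so that order is a description of the 36. In Ubx pupae at 19 °C the second replicate was the lowest for all 36, and for 17 of the other 64 members. In Ubx pupae at 29 °C the first replicate was the highest for 34 of the 36, and in eGFP pupae at 29 °C the first replicate was the highest for 30. In eGFP pupae at 19 °C, which did not enter the correlation but chose the members, the second replicate was the lowest for 24 and the fourth for the other 12, and these were also the 2 arrays with the lower fat body mean, at 11.1 and 11.3 against 11.7 and 11.7. The median replicate SD of the 36 was 0.831 in Ubx pupae at 19 °C, 0.549 in Ubx pupae at 29 °C, 0.493 in eGFP pupae at 29 °C and 0.374 in eGFP pupae at 19 °C. That of the other 64 was 0.108, 0.102, 0.0973 and 0.0947.

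**Figure D2:**
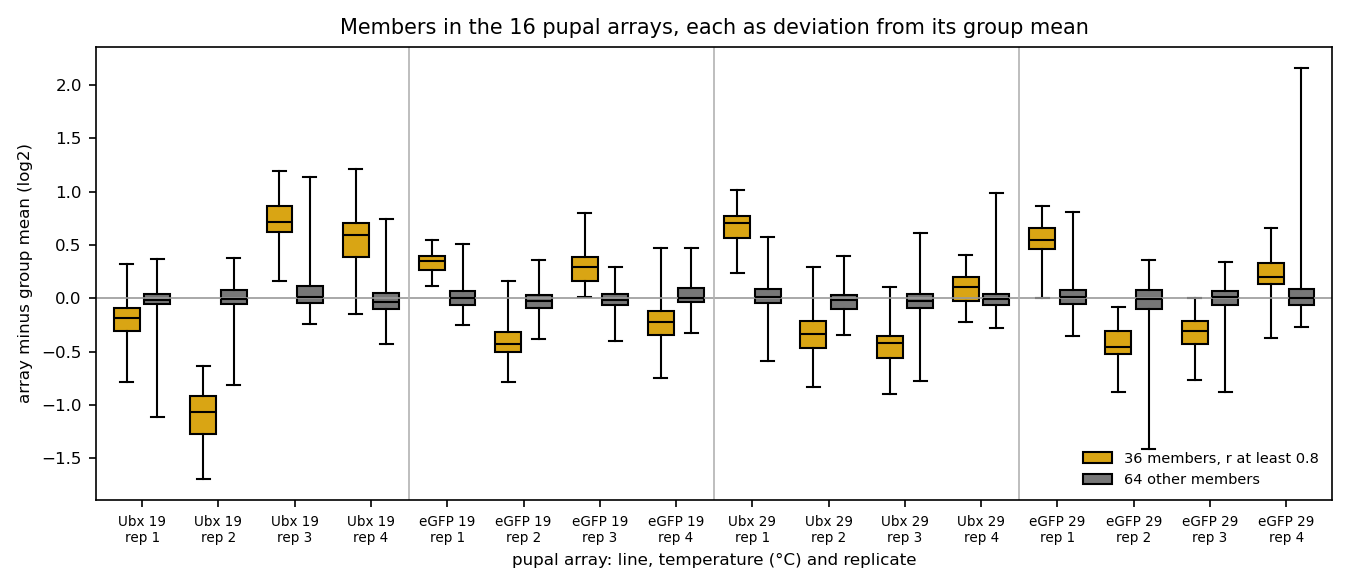
Deviation of each member from its group mean on the 16 pupal arrays (vertical axis, log2; boxes span the quartiles, lines inside mark medians, whiskers reach the extremes). The 36 members with r of at least 0.8 shift together by array, as the limit on r selects, lowest on the second Ubx replicate at 19 °C, while the medians of the other 64 stay near 0.

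**Figure D3:**
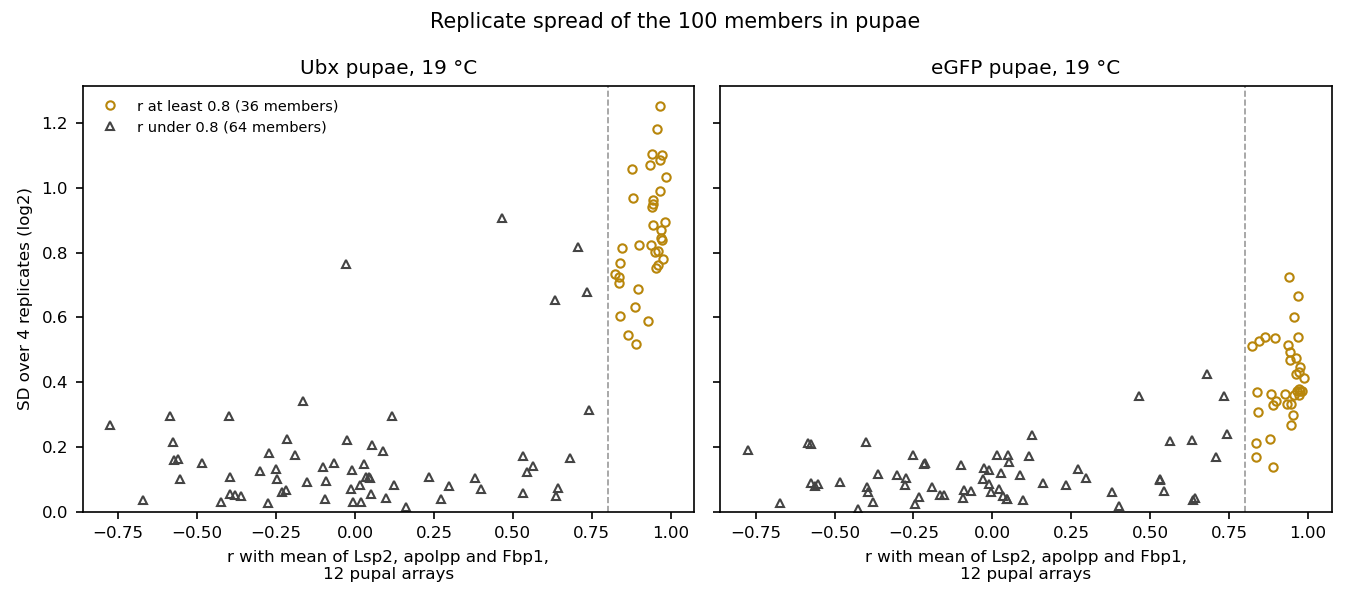
Replicate SD of each of the 100 members in Ubx pupae (left) and eGFP pupae (right) at 19 °C, plotted against r with the mean of Lsp2, apolpp and Fbp1 over the other 12 pupal arrays. The SD is high where r is at least 0.8, with medians of 0.831 in Ubx and 0.374 in eGFP pupae, and mostly low elsewhere.

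A larval array stood apart in the same fat body genes. The third replicate of eGFP larvae at 29 °C had a mean of 10.2 for Lsp2, apolpp and Fbp1, against 5.17, 5.60 and 5.47 in the other replicates of its group and 5.02 to 6.43 in Ubx larvae at 29 °C. On it, 9 of the 36 members lay more than 1 log2 unit above the mean of the other 3 arrays, 2 of the other 64 members did (Fbp2 and NimC2), and 25 of all 11982 genes. The 9 were Lsp2, Fbp1, apolpp, CG15369, CG2233, fon, CG16926, CG12116 and Lsd-1, a perilipin. Of these, Lsp2, Fbp1 and apolpp singled out the array and also define the 36, so their place among the 9 was given in advance. Lsp2 was higher there by 5.44 and Fbp1 by 5.35, while the median over the 36 was 0.19. Markers of fat body thus moved on this array together with part of the group; their part in the larval results was not tested beyond leaving the array out.

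The other 64 members include Jhbp7, Mur89F, Eip93F, Tsf1, tnc, osy, Qsox2 and Tg, as well as Spn42Dd (a serpin protease inhibitor), wun2 (a lipid phosphate phosphatase), psh (persephone, a protease of the Toll pathway), Buffy (a member of the Bcl-2 family) and skl (sickle, a pro-apoptotic gene). Markers of neurons, glia and muscle were among them too. The glial homeobox gene repo read 6.92, 6.89, 7.04 and 7.0 in Ubx pupae at 19 °C, against 6.98, 6.81, 6.83 and 6.79 in eGFP pupae. Its replicates lay close together and r was -0.01. Act88F, the actin of flight muscle, averaged 8.65 ± 0.08 in Ubx and 8.56 ± 0.10 in eGFP pupae at 19 °C (SD, n = 4 each), with r of 0.30. The neuronal genes fne, an RNA-binding protein, and Appl, the fly homologue of amyloid precursor protein, had r of -0.78 and -0.59. Of the lists for other tissues, 5 of 13 neuron markers, 3 of 6 glia markers, 3 of 11 muscle markers and 3 of 13 haemocyte markers were higher in pupae than at both earlier stages in the Ubx line at 19 °C, against 15.8% of all genes, and no salivary gland marker of 9 was. These counts include the members fne and Appl (neurons), repo (glia), and Act88F and Mlc2 (muscle). Members were chosen for a high pupal signal, so no excess over all genes is read from the counts.

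With the transgenes off, the line difference of many members turned on single arrays. In pupae at 19 °C, 17 members were at least 1.5-fold lower in the Ubx than in the eGFP line by their means and none was higher by as much; 13 of the 17 were members with r of at least 0.8. Without the second Ubx array 6 were lower, of which 2 had such an r (CG42792 and CG31606) and 4 did not (CG13748, Eig71Ej, Fbp2 and Def), and 2 were higher. Without the third or the fourth Ubx array 27 were lower. The median line difference was -0.459 over the 36 and -0.0276 over the other 64, and without the second Ubx array -0.0888 and -0.0395. The 4 Ubx arrays had fat body means of 10.7, 9.71, 11.5 and 11.6, against 11.7, 11.1, 11.7 and 11.3 on the eGFP arrays. Fbp2 was apart from the rest. It read 4.56, 4.48, 4.77 and 4.83 in Ubx pupae at 19 °C, against 8.98, 8.09, 8.66 and 8.15 in eGFP pupae, a difference of -3.81 while Lsp2, apolpp and Fbp1 were high in both lines. The eGFP arrays at 19 °C chose the members, so these values are a description with no test.

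With the transgenes on, 37 of the 100 members differed between Ubx and eGFP pupae. Lower in Ubx pupae were 23 members, against 5.80% of all named genes, and higher were 14, against 5.07%. The median difference over the members was 0.133 and that over all genes near 0. Of the 23 and 14, the values of 20 and 8 did not overlap between the lines, against 4.85% of all genes called lower without overlap and 3.83% called higher without overlap. Of the 37, 31 kept their call when any single array of the compared groups was left out. Tests used limma's moderated model over all 48 arrays, with p-values adjusted by Benjamini-Hochberg over 18769 probe sets. Labels do not give more than biological replicate for the origin of the samples. Each SE and p-value rests on 1 spread per gene, pooled over the 12 groups, and not on the compared pools alone. At 29 °C, 26 members in Ubx pupae and 22 in eGFP pupae had an SD over 0.5, against 4 and 3 in prepupae. For members that scatter more in pupae than earlier, such as Eig71Ej, the pooled SE understates the error of the pupal comparison.

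The 23 members that fell all had r under 0.8 with the fat body genes. The highest r among them was that of Fbp2, itself a fat body marker, at 0.68. Qsox2 read 9.0, 8.87, 8.86 and 8.79 in Ubx pupae at 29 °C, against 10.73, 11, 10.78 and 10.81 in eGFP pupae. The lines were well apart, with a difference of -1.95 ± 0.07 (SE, adjusted p = 3.22e-24), and at 19 °C the difference was -0.01. Buffy read 6.55, 6.38, 6.13 and 6.31 in Ubx pupae, against 8.02, 8.09, 7.78 and 7.89 in eGFP pupae, a difference of -1.61 ± 0.11 (SE, adjusted p = 7.39e-15). The other gene of the cell death machinery, skl, was lower by 0.53 ± 0.09 (SE, adjusted p = 6.54e-05), with 1 Ubx array among the eGFP values.

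Mlc2 read 7.64, 7.53, 7.36 and 7.40 in Ubx pupae at 29 °C, against 8.55, 8.41, 8.52 and 8.34 in eGFP pupae. Its difference was -0.97 ± 0.09 (SE, adjusted p = 9.64e-11), while Act88F averaged 8.40 in both lines and did not pass (adjusted p = 0.994). The difference between these muscle genes was not tested. Tg was lower by 0.93 ± 0.12 (SE, adjusted p = 3.65e-07), and Mur89F by 0.51 ± 0.08 (SE, adjusted p = 1.08e-05), with 12.39, 12.41, 12.36 and 12.55 in Ubx pupae, against 12.94, 12.87, 13.01 and 12.92 in eGFP pupae. Eip93F read 10.35, 10.67, 10.38 and 10.26 in Ubx pupae, against 10.79, 11.10, 10.90 and 11.52 in eGFP pupae, a difference of -0.66 ± 0.12 (SE, adjusted p = 9.79e-05). The values did not overlap, and the fourth eGFP array was the highest. Of the 20 measured genes of the ecdysone response list, Eip93F was the 1 called lower, and 2 were called higher, br (0.74, adjusted p = 0.000671) and ImpL2 (0.31, adjusted p = 0.0223).

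Among genes known by number, CG7367 fell by 1.62 ± 0.10 (SE, adjusted p = 3.48e-17), CG14301 by 1.46 ± 0.10 (SE, adjusted p = 1.79e-15) and CG14915 by 1.37 ± 0.08 (SE, adjusted p = 5.13e-18). CG7367 lies next to Tg and had been lower in Ubx pupae at 19 °C too, by 0.45 with no overlap, with the transgenes off. The gene dsx-c73A fell by 1.08 ± 0.12 (SE, adjusted p = 2.31e-09), and CG7365, CG3397, CG13081 and CG9119 fell by 0.92, 0.70, 0.70 and 0.68. The remaining falls were those of CG43366, CG14566, Appl, psh, CG16798, CG32055 and pncr004:X, at 0.56 to 0.19. Fbp2 was lower by 4.59 ± 0.47 (SE, adjusted p = 5.51e-10), beside the 3.81 seen with the transgenes off. Of the smaller falls, Appl was lower with the transgenes off too, at 6.73 in Ubx and 7.10 in eGFP pupae, with overlap. At 19 °C psh was also lower in Ubx pupae and CG43366 higher, each with no overlap between the lines.

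**Figure D4:**
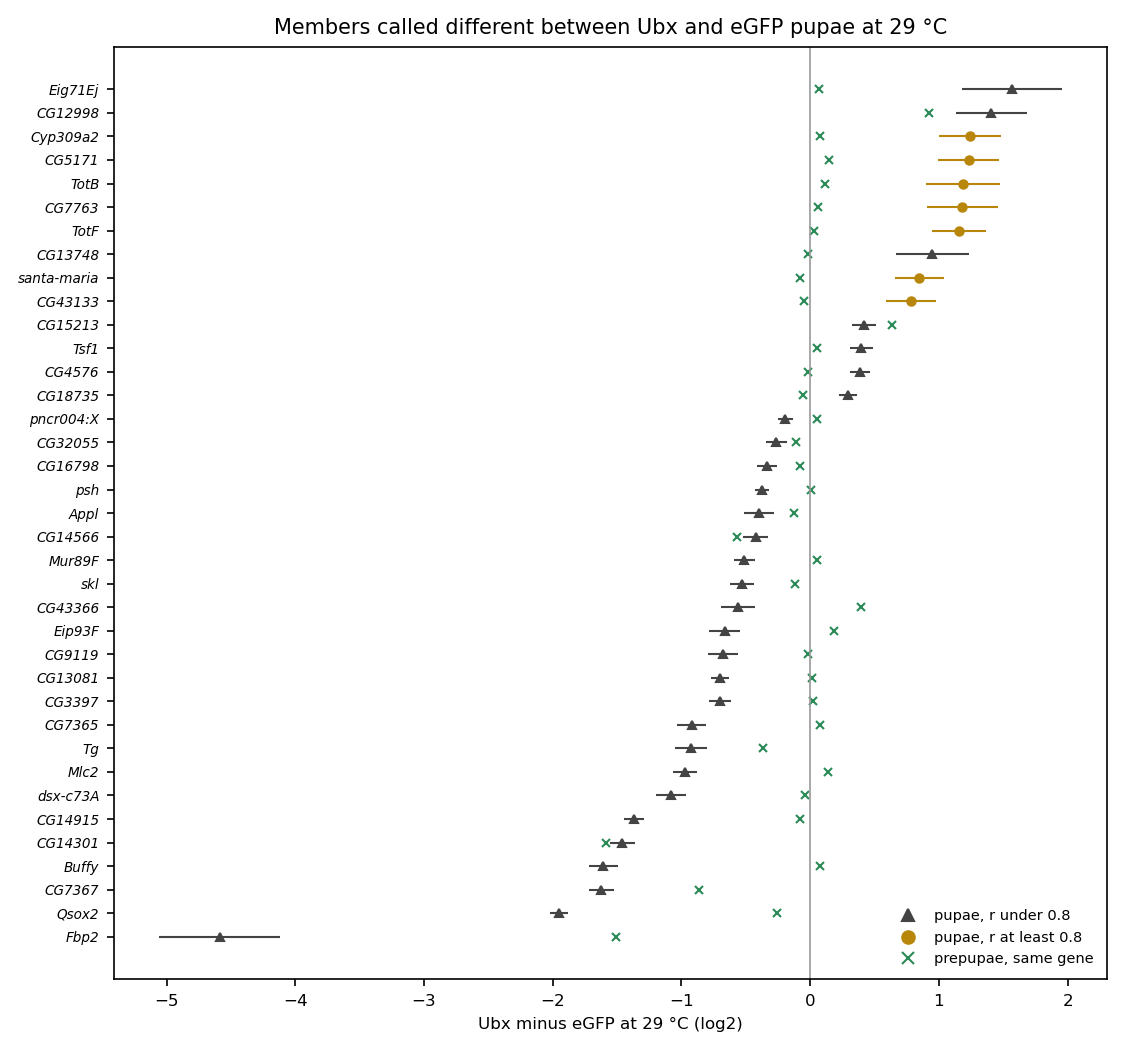
Ubx minus eGFP difference in pupae at 29 °C (horizontal axis, log2; bars are standard errors of the fit, 4 arrays per line) for the 37 members called different, with the prepupal difference of the same gene as a cross. Triangles mark members with r under 0.8 and circles those with r of at least 0.8, all 7 of which lie on the higher side.

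The rises were of another make. Of the 14 members higher in Ubx pupae, 7 belonged to the 36 that move with the fat body genes (Cyp309a2, CG5171, TotB, CG7763, TotF, santa-maria and CG43133), and none of those 36 was lower. TotF read 8.48, 7.73, 7.33 and 8.07 in Ubx pupae at 29 °C, against 7.15, 6.51, 6.49 and 6.83 in eGFP pupae, a difference of 1.16 ± 0.21 (SE, adjusted p = 8.28e-05). Cyp309a2 read 8.11, 7.25, 6.95 and 7.73 in Ubx pupae, against 6.88, 5.66, 5.82 and 6.71 in eGFP pupae, a difference of 1.24 ± 0.24 (SE, adjusted p = 0.00024). For both genes the lowest Ubx value lay above the highest eGFP value. TotF kept the replicate order of the fat body mean in both lines and Cyp309a2 in the Ubx line, which was 12.6, 11.8, 11.7 and 12.2 on the Ubx arrays, against 12.2, 11.6, 11.5 and 12 on the eGFP arrays. Over the 36 the median difference was 0.468, and 33 were higher in Ubx pupae by their means; over the other 64 the median was -0.0486 and 30 were higher. Lsp2, apolpp and Fbp1 differed by 0.08, 0.31 and 0.29, with adjusted p-values of 0.974, 0.840 and 0.893. The part of fat body genes in these rises was not tested. When the fit was limited to the arrays compared, 9 members in place of 14 were higher, and TotB and CG7763 were among those that no longer passed (adjusted p = 0.101 and 0.0868).

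The other 7 rises were mostly small. CG18735, CG4576, Tsf1 and CG15213 were higher in Ubx pupae by 0.29, 0.39, 0.40 and 0.42, with adjusted p-values from 0.000448 to 0.00253 and no overlap between the lines. Tsf1 read 11.64, 11.50, 11.48 and 11.64 in Ubx pupae at 29 °C, against 11.21, 11.20, 11.05 and 11.23 in eGFP pupae; at 19 °C it was lower in the Ubx line by 0.27. CG12998 read 6.65, 6.99, 7.85 and 7.45 in Ubx pupae, against 5.65, 5.91, 5.83 and 5.91 in eGFP pupae, a difference of 1.41 ± 0.28 (SE, adjusted p = 0.000281). Eig71Ej, an ecdysone-induced gene, scattered widely between replicates, with 8.36, 8.50, 7.76 and 9.52 in Ubx pupae, against 7.09, 5.55, 6.09 and 9.13 in eGFP pupae. Its difference of 1.57 ± 0.39 (SE, adjusted p = 0.00467) lost its call without the second eGFP array (adjusted p = 0.0691). The call was also lost with the compared groups alone (adjusted p = 0.262), and the lines overlapped. CG13748, higher by 0.95 ± 0.28 (SE, adjusted p = 0.0238), lost its call when any of 4 arrays was left out: the first or the fourth Ubx array (adjusted p = 0.0702 and 0.166) or the second or the third eGFP array (adjusted p = 0.289 and 0.0863). Nor did CG13748 pass with the compared groups alone (adjusted p = 0.349).

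In prepupae at 29 °C most members were still low, and 19 differed between the lines. Lower in Ubx prepupae were 13 members, against 8.31% of all genes, and higher were 6, against 8.73%. CG14301 read 6.31, 6.60, 6.93 and 6.44 in Ubx prepupae, against 7.91, 8.25, 8.18 and 8.30 in eGFP prepupae, a difference of -1.59 ± 0.10 (SE, adjusted p = 7.68e-17). CG3036 read 9.23, 9.60, 9.06 and 8.79 in Ubx prepupae, against 8.09, 7.79, 7.91 and 7.99 in eGFP prepupae, a difference of 1.23 ± 0.10 (SE, adjusted p = 1.36e-12). Neither gene overlapped between the lines at 29 °C. With the transgenes off, CG3036 was already higher in Ubx prepupae with no overlap, at 9.23, 9.07, 9.15 and 9.28 against 8.72, 8.99, 8.68 and 8.76. CG14301 overlapped between the lines there. Mco1 read 6.53, 6.88, 6.73 and 6.62 in Ubx prepupae, against 5.72, 5.70, 5.28 and 5.23 in eGFP prepupae, a difference of 1.21 ± 0.11 (SE, adjusted p = 1.13e-11).

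Of the members with a higher signal in prepupae at 29 °C than at 19 °C, several were lower in Ubx prepupae and others higher. CG6426 was lower by 0.64 ± 0.12 (SE, adjusted p = 0.000145; 0.0758 with the compared groups alone), CG1850 by 0.56 ± 0.10 (SE, adjusted p = 3.6e-05) and IM33 by 0.71 ± 0.18 (SE, adjusted p = 0.00479). Mco1 and CG15213, also among them, were higher, CG15213 by 0.64 ± 0.09 (SE, adjusted p = 1.64e-06). CG12998 was higher by 0.92 ± 0.28 (SE, adjusted p = 0.0165), a call lost without the third or the fourth Ubx array or the first eGFP array, and with the compared groups alone (adjusted p = 0.188). In all, 12 of the 19 calls were kept when any single array of the compared groups was left out; the others were those of CG12998, CG13064, CG43366, Qsox2, Fbp2, Tg and CG32006.

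In larvae at 29 °C the Ubx wings differed from the eGFP wings in 9 members. Lower were 6, against 1.89% of all genes, and higher 3, against 1.79%. CG14915 read 4.48, 4.36, 4.30 and 4.36 in Ubx larvae, against 5.07, 5.20, 5.14 and 5.30 in eGFP larvae, a difference of -0.80 ± 0.08 (SE, adjusted p = 3.34e-10). CG3036 was higher by 0.82 ± 0.10 (SE, adjusted p = 2.31e-07), and CG7367 was lower by 0.63 ± 0.10 (SE, adjusted p = 1.13e-05). CG43366, CG14301 and osy were lower too, and CG4576 and CG13023 higher, by 0.70 or less; osy did not pass with the mean of its probe sets (-0.26, adjusted p = 0.39), nor CG4576 with the compared groups alone (adjusted p = 0.0548). Fbp2 read 4.42, 4.51, 4.31 and 4.16 in Ubx larvae, against 4.76, 6.00, 9.47 and 4.96 in eGFP larvae, a difference of -1.95 ± 0.47 (SE, adjusted p = 0.00888). It did not pass with the compared groups alone (adjusted p = 0.357). With the transgenes off, the means of Fbp2 were 4.31 in Ubx and 4.79 in eGFP larvae. Without the third eGFP array at 29 °C, the one with high fat body genes, the difference at 29 °C was -0.89 and the call was lost (adjusted p = 0.0608). The call of CG13023 was also lost without that array (adjusted p = 0.0686) and without the second Ubx array (adjusted p = 0.128). That of CG14301 was lost without the second Ubx array (adjusted p = 0.161) or without the second or the fourth eGFP array (adjusted p = 0.0533 and 0.0574).

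Whether the Ubx effect itself differed between pupae and prepupae at 29 °C was tested directly. It was lower in pupae for 19 members, against 5.80% of all genes, and higher for 9, against 5.36%. Buffy, Qsox2 and Mlc2 had pupal minus prepupal effects of -1.68 ± 0.16 (SE, adjusted p = 1.06e-10), -1.69 ± 0.10 (SE, adjusted p = 1.15e-16) and -1.11 ± 0.13 (SE, adjusted p = 3.89e-08). With the transgenes off, Buffy had been higher in Ubx prepupae by 1.40. CG3036 and Mco1 had the opposite order, with rises of 1.23 and 1.21 in prepupae and differences of 0.08 and 0.19 in pupae that did not pass; the stage difference was -1.15 ± 0.15 and -1.02 ± 0.15 (SE, adjusted p = 1.58e-07 and 5.98e-06). CG3036 lay between 13.3 and 13.4 in every pupal group, near the top of the scale. CG43366 was higher in Ubx prepupae by 0.39 and lower in Ubx pupae by 0.56, a change of -0.95 ± 0.19 (SE, adjusted p = 0.000377). The prepupal part of that reversal was weak, with an adjusted p of 0.0372 that was lost without any of 6 arrays, and at 19 °C CG43366 had been higher in Ubx prepupae by 0.78. CG14301 and CG7367 were lower in Ubx wings at each of the 3 stages at 29 °C.

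**Figure D5:**
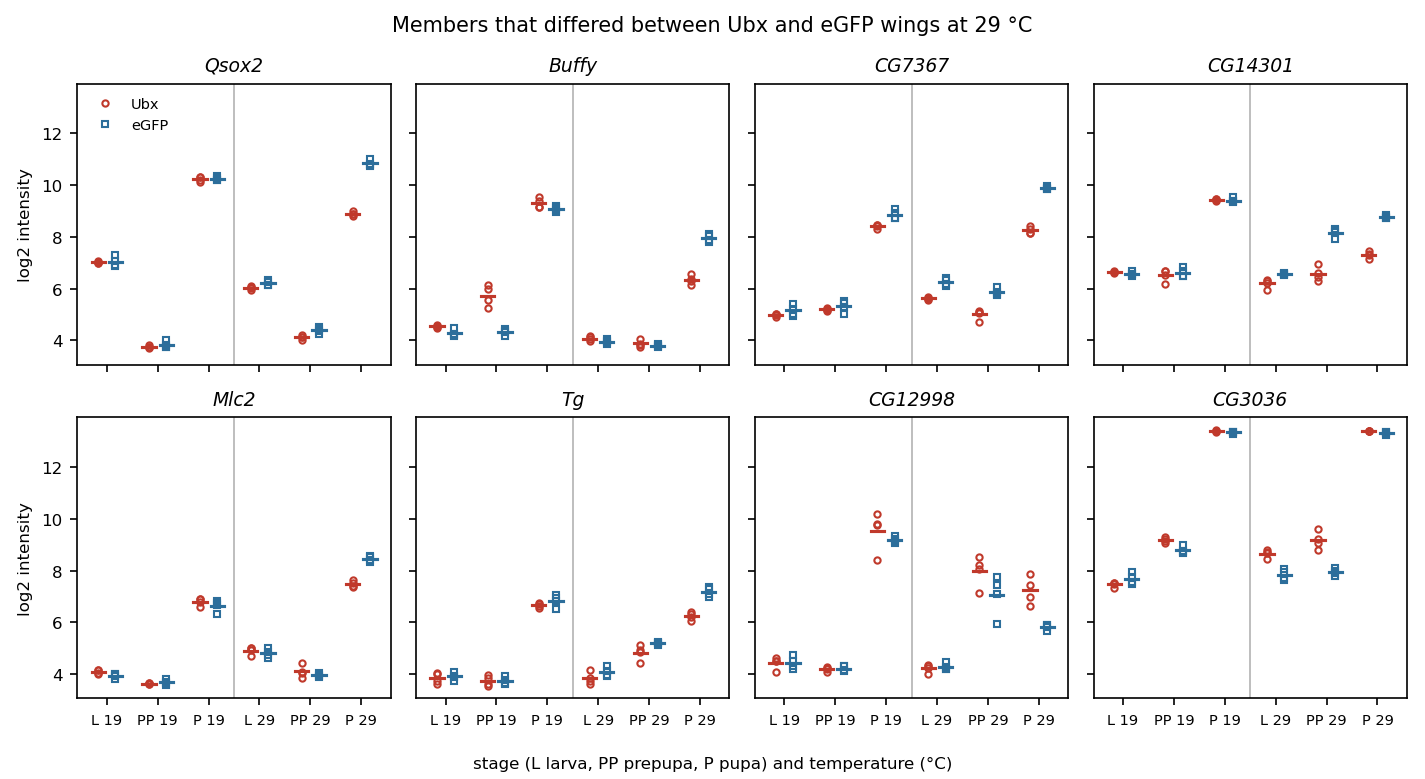
Signal of 8 members that differed between the lines at 29 °C, on all 48 arrays (vertical axis, log2 intensity; horizontal axis, stage and temperature; circles Ubx, squares eGFP, bars means of 4). Qsox2, Buffy, Mlc2 and Tg separate in pupae at 29 °C, CG3036 in larvae and prepupae at 29 °C, and CG7367 and CG14301 at each stage at 29 °C.

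By RefSeq gene order (assembly Release 6 plus ISO1 MT), 21 lay on arm 2L, 17 on 2R, 21 on 3L, 25 on 3R, 13 on X and 2 on chromosome 4, against 18.4%, 20.3%, 19.6%, 24.8%, 15.6% and 0.542% of all named genes, and 1 was not placed. A run of 4 members, CG13053, CG34247, CG13067 and CG13064, lay within 14 protein-coding genes on 3L, and 6 more pairs lay within 10 genes of each other, among them Tg with CG7367, Mco1 with Fbp2 and Qsox2 with Eip93F, each side by side. No expectation for neighbours was computed. Neighbours did not always differ alike between the lines. At 29 °C Mco1 was higher in Ubx prepupae where Fbp2 was lower, while Qsox2 and Eip93F were both lower in Ubx pupae. Fbp2 was lower in Ubx prepupae with the transgenes off too, at 4.41 against 5.56. Its call in prepupae at 29 °C was lost with deposited values or centred arrays (adjusted p = 0.0793 and 0.0843). Of the 100 members 98 are annotated as protein coding, and 49 carry a CG number for a name, against 43.5% of all named genes.

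Of the 100 members 13 had several probe sets. The 2 probe sets of CG15213 gave the same calls, with differences in pupae of 0.42 and 0.45. For Mur89F, Eip93F and CG43366 the fall in Ubx pupae rested on the brighter probe set, and the others, with eGFP pupal means of 4.01 to 5.84, showed differences of -0.15 to -0.07 that did not pass. For Tsf1 the second probe set gave 0.34, which did not pass, beside 0.40.

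Lists of genes for the other processes of this period held no or few members. None of the 100 belonged to the lists for chitin, tanning and pigment, planar polarity and wing hairs, veins, integrin and basal matrix, septate junctions, sensory organs or the cell cycle. The members are 100 of 11982 genes and these lists are short, with 12 to 24 measured genes each. No lack of members is therefore read from the lists. Of those lists, chitin genes were higher in pupae than at both earlier stages for 5 of 24 in the Ubx line at 19 °C, planar polarity and wing hair genes for 6 of 12, vein genes for 6 of 15 and integrin and matrix genes for 5 of 17, against 15.8% of all genes, and cell cycle genes for 0 of 12. Of the antimicrobial peptides, Def (defensin) is a member. With Def counted, 3 of 6 were higher in pupae in the Ubx line at 19 °C and 6 of 6 in the eGFP line at 29 °C, against 15.8% and 15.5% of all genes.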

How the data were processed

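RNA of 48 samples was measured on Affymetrix Drosophila Genome 2.0 arrays. The authors deposited log2 values made with RMA, per the submitters' processing notes; its version and the base of the logarithm were not stated. Deposited array medians ranged from 4.19 to 4.78 and differed by at most 0.0913 within the 6 sets of 8 arrays of a stage and temperature. All arrays were quantile-normalised together over 18769 probe sets, 183 controls left out. Of these, 13647 had 1 symbol, 402 several and 4720 none; the probe set with the highest mean stood for a gene. limma 3.58.1 (R 4.3.3) fitted a mean per group over 48 arrays, two-sided, Benjamini-Hochberg adjusted, called under 0.05, and was tested on simulated data. The number of arrays limits the precision. Members, lists, tests and alternatives were chosen with earlier results of these data known. Named were members with the largest margins, those at the limit, up to 8 rises and 8 falls per comparison, members not called, in a list or with disagreeing probe sets. The Ubx transcript was not analysed here, and no sequences were used.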

Additional observations from a re-analysis of the deposited data

Results flagged for a closer look

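Among 124 sets of 4 arrays examined (the median of the members in each group, and in pupae the 12 members with the largest margins and the 16 with the largest line differences), 7 had an array far from the other 3, where chance gives about 1 in 20. Jhbp7 had its highest value, 13.3, on the third Ubx array of pupae at 19 °C. CG1850 had its lowest, 13.9, on the fourth Ubx array of the same group, and CG7365 its highest, 9.90, on the second. CG7365 also had its highest, 9.40, on the fourth Ubx array of pupae at 29 °C. CG13023 read 14.1 on the second Ubx array of that group, where the other 3 arrays had an identical value from their rank. CG13067 had its lowest, 10.0, on the third eGFP array of pupae at 29 °C, and Tsf1 its lowest, 11.8, on the first eGFP array of pupae at 19 °C. The difference between Ubx and eGFP wings at 29 °C turned over for CG43366, at -0.56 in pupae and 0.394 in prepupae, a change of -0.954 (adjusted p = 0.000377).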

How the results depend on the processing

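Counts of members called kept their size, within 1.5 times, under most alternatives: deposited values, arrays centred on their medians, means of a gene's probe sets, brighter probe sets, the compared groups alone, a 1.5-fold minimum and each array left out. With deposited values or centred arrays, 92 of the 100 members were chosen again. At 1.5-fold or more, 14 members were lower in Ubx pupae, 5 were lower in Ubx prepupae and 1 was higher in Ubx larvae. With the compared groups alone, 9 were higher in Ubx pupae and 8 lower in Ubx prepupae. With brighter probe sets, 5 were higher in Ubx larvae. With 1 array left out, members higher in Ubx larvae numbered 2 to 5 (5 without the fourth Ubx array), and members with a higher Ubx effect in pupae than in prepupae numbered 4 to 11, with 4 without the first Ubx or the third eGFP pupal array and 5 without the fourth Ubx or the second eGFP one. With 1 array left out, chosen after seeing the data, members at least 1.5-fold lower in Ubx than in eGFP pupae at 19 °C numbered 6 (without the second Ubx array) to 27 (without the third or the fourth), against 17 on all arrays. A replicate block left 14 higher and 23 lower in Ubx pupae and changed no other call count by more than 1. Same-numbered samples correlated at -0.101 to 0.356, over 0.1 in 4 of 36 pairs. Between Ubx and eGFP pupae at 29 °C the first replicates correlated at 0.356 and the third at 0.162. The block is a common effect over all groups, so it cannot show a pairing limited to these pupae, which was not tested. The causes were not tested. Of the named results, 39 fits were no longer past the threshold, 507 kept their call and 0 reversed.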
